A study of Mus musculus with 2 samples.

Results

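Vascular smooth muscle nuclei of mouse CIC::DUX4 sarcomas were taken from single-nucleus RNA-seq by a count of marker UMIs (unique molecular identifiers, each standing for 1 captured RNA molecule). Nuclei with at least 1000 UMIs and under 5% mitochondrial UMIs were kept. A nucleus was called mural, meaning of the vessel wall, when Notch3, Pdgfrb, Rgs5, Abcc9, Cspg4, Mcam, Kcnj8 and Myh11 together reached 20 UMIs per 10000 and at least 3 of these genes were detected. A mural nucleus was called a vascular smooth muscle (VSMC) nucleus when its UMIs of Myh11, Acta2, Cnn1 and Kcnab1 exceeded those of Abcc9, Kcnj8, Rgs5 and Cspg4. The rule gave 402 VSMC nuclei, which was 0.669% of 60121 filtered nuclei and 22.04% of 1824 mural nuclei. The remaining mural nuclei were 1346 with more UMIs of the pericyte genes (pericyte-leaning) and 76 with equal UMIs. Of the 5 genes that mark these nuclei, Myh11, Acta2, Notch3 and Kcnab1 were part of the rule and Pde3a was not.

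Smooth muscle cells wrap arteries and veins and set vessel diameter by contracting, whereas pericytes lie along capillaries. Contraction starts when calcium enters through voltage-gated channels or leaves internal stores, binds calmodulin and activates myosin light chain kinase, which lets myosin pull on actin, and nitric oxide and cyclic GMP oppose it. The contractile genes are switched on largely by serum response factor (SRF) with its coactivator myocardin, and Notch3 signaling supports the arterial mural state. Such cells can also take on a synthetic state with less contractile and more matrix gene expression.

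The tumors came from dFLEx CDS mice, in which a CAG promoter at Rosa26 drives CIC::DUX4 after both Cre and FLPE recombinase have acted, and which the study started by electroporating plasmids for both recombinases (pCAG-Cre and pCAG-FLPE) into gastrocnemius muscle. The untreated group held 4 tumors, labelled dFLEx CDS +/- in genotype and without treatment. The Minnelide group held 4 tumors of dFLEx CDS mice given 0.42 mg/kg Minnelide, a water-soluble prodrug of the transcription inhibitor triptolide, daily by intraperitoneal injection for 21 days; its label gives no genotype. By the study's account the sequenced Minnelide tumors were picked to include both good and poor responders. The labels do not say which is which, and no comparison by response was made. The group is kept whole, and its mean and spread cover both. The plasmids are not restricted to a cell type, so host vessel cells and cells that took up the plasmids are not told apart by the labels, and the mice's age was not given in the labels. Each of the 8 matrices was taken as 1 tumor, as the series design states 4 per group, and the tumor numbers used below are names only and pair nothing.

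Total UMIs per tumor lay between 18487409 and 73211599 over 5210 to 12615 deposited nuclei. Each group was deposited as a sample record of its own, and whatever else differed between the records cannot be told apart from treatment. Cell barcodes shared by any pair of tumors numbered 355, all between an untreated and a Minnelide tumor of the same number. Of the VSMC nuclei 6 carried such a barcode, and 0 barcodes were VSMC nuclei in both tumors of a pair.

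VSMC nuclei were found in every tumor. Untreated tumors 1 to 4 had 181, 22, 54 and 17, and Minnelide tumors 1 to 4 had 43, 44, 33 and 8. Untreated tumor 1 alone held 45.0% of them, so gene levels below are given per tumor or as means over tumors with equal weight. Detection shares, and the values by excess of smooth muscle UMIs, are instead pooled over nuclei of all 8 tumors. Untreated tumor 1 weighs most in those for VSMC nuclei. Levels are given as CPM, the UMIs of a gene per 1000000 UMIs summed over a tumor's VSMC nuclei. Minnelide tumor 4, with 8 nuclei and 32500 UMIs, was left out of CPM means and of fits. There 1 UMI stands for 30.8 CPM, against 1.34 CPM in untreated tumor 1. CPM is not scaled to gene length, so levels are compared between classes and tumors and not between genes.

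The smooth muscle genes of the rule come first. Myh11, the smooth muscle myosin heavy chain, was at 1328, 1500, 1996 and 1628 CPM in VSMC nuclei of untreated tumors 1 to 4 and at 616, 1913 and 743 CPM in Minnelide tumors 1 to 3. Acta2, smooth muscle alpha-actin, was at 1851, 1466, 1752 and 1786 CPM and at 1147, 630 and 1063 CPM. Kcnab1, a beta subunit of voltage-gated potassium channels, was at 1997, 2910, 2628 and 2959 CPM and at 1813, 2115 and 1646 CPM. These values lie far above those of pericyte-leaning nuclei in each tumor, where the 7-tumor means were 91.5 ± 45.4 CPM for Myh11, 127 ± 58.8 CPM for Acta2 and 212 ± 69.2 CPM for Kcnab1 (SD, n = 7). Cnn1, calponin, was sparse, at 32.9 ± 22.8 CPM in VSMC nuclei and 0.959 ± 0.957 CPM in pericyte-leaning nuclei.

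Of the pericyte side of the rule, Abcc9 and Kcnj8, the subunits of a vascular ATP-sensitive potassium channel, were at 169 ± 60.7 and 6.23 ± 8.57 CPM in VSMC nuclei against 805 ± 305 and 59.8 ± 32.0 CPM in pericyte-leaning nuclei. Rgs5, a regulator of G protein signaling, was at 668 ± 325 against 1406 ± 328 CPM. Genes shared by both mural classes differed little. Mcam was at 262 ± 61.6 against 262 ± 98.6 CPM, Cspg4 at 202 ± 40.5 against 171 ± 37.9 CPM, and Pdgfrb, the receptor through which mural cells are recruited, at 655 ± 144 against 745 ± 134 CPM. Notch3 was at 1078 ± 128 against 602 ± 174 CPM and was higher in VSMC nuclei in 7 of 7 tumors. The rule chose the nuclei by these genes, so the values describe the choice and carry no test.

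Pde3a, a phosphodiesterase that breaks down cyclic AMP, is the marker the rule did not use. It was at 1685, 1477, 2993 and 1698 CPM in untreated tumors 1 to 4 and at 1966, 2014 and 1892 CPM in Minnelide tumors 1 to 3. Pericyte-leaning nuclei had 919 ± 393 CPM and macrophage nuclei 30.5 CPM on average (n = 7), and Pde3a was higher in VSMC than in pericyte-leaning nuclei in 7 of 7 tumors, with a median log2 ratio of 1.32. Detection gave the same order. With every nucleus thinned to 1000 UMIs, a Pde3a UMI was found in 67.2% of VSMC, 34.1% of pericyte-leaning and 3.22% of macrophage nuclei. Before thinning the shares were 86.1%, 50.2% and 7.98%, at median depths of 3769, 2959 and 2968 UMIs. The macrophage share serves as the background that free RNA gives.

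**Figure D1:**
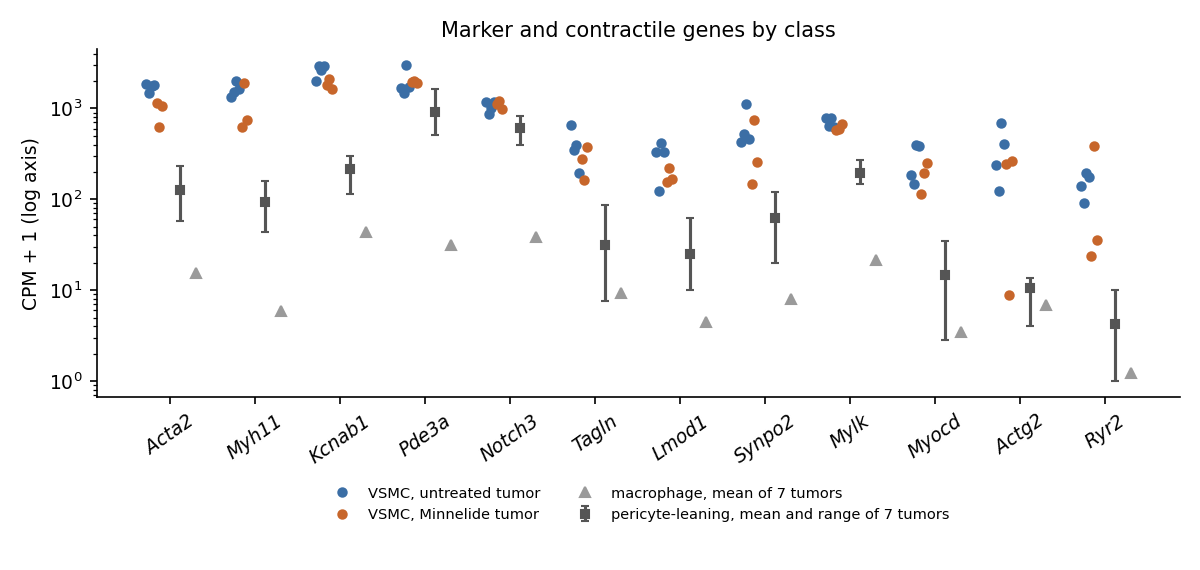
CPM plus 1 on a log axis of 12 genes, with points for VSMC nuclei of each tumor (blue untreated, orange Minnelide), squares with bars for the mean and range of pericyte-leaning nuclei in 7 tumors, and triangles for the macrophage mean. Acta2, Myh11, Kcnab1 and Notch3 belong to the rule, and Pde3a and the other 7 genes do not. Actg2 in Minnelide tumor 2 (7.78 CPM, which is 1 UMI) lies at the pericyte-leaning level.

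Members near the threshold differed from those well past it. By the excess of smooth muscle over pericyte UMIs, 54 nuclei had an excess of 1, 64 of 2 to 3, 95 of 4 to 9 and 189 of 10 or more. The 21 contractile genes outside the rule reached means over nuclei of 61.5, 84.3, 105 and 179 UMIs per 10000 in these bins. Each bin pools nuclei of all 8 tumors. The bins also differed in depth, with median UMIs of 2974, 2839, 3389 and 4317. Over the same bins 8 genes known as CIC::DUX4 targets (Vgf, Dusp4, Spred2, Shc3, Shc4, Etv1, Etv4 and Etv5) were at 77.7, 57.7, 59.1 and 43.9 UMIs per 10000. Nuclei with equal UMIs of both gene sets, just outside, numbered 76 with a median of 1 UMI of each set, and the members with an excess of 1 had medians of 3 and 2 UMIs. At the mural threshold, 74 members had 20 to 25 mural UMIs per 10000, and 120 nuclei with more smooth muscle than pericyte UMIs lay outside at 15 to 20. The part of each that depth plays was not tested.

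**Figure D2:**
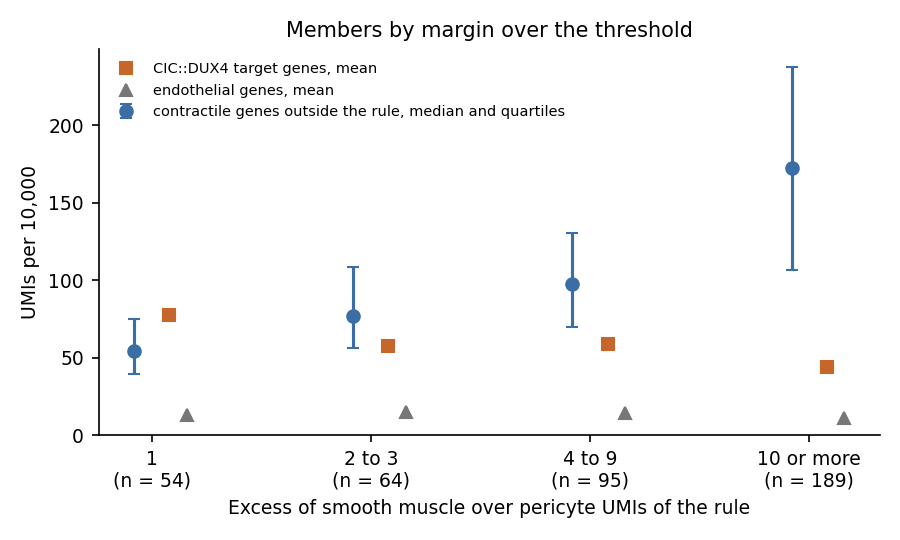
UMIs per 10000 in the 402 VSMC nuclei, binned by the excess of smooth muscle over pericyte UMIs of the rule. Circles with bars are medians and quartiles of the contractile genes outside the rule, squares and triangles are means of CIC::DUX4 target and endothelial genes. The contractile median goes from 54.4 at an excess of 1 to 172 at 10 or more.

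Markers of other classes were present in the VSMC nuclei. A class rule of at least 3 of 8 markers and 20 UMIs per 10000 (100 for myonuclei) was met by 69 of 402 nuclei for endothelial, 34 for fibroblast, 9 for macrophage and 90 for myonucleus markers, and 158 nuclei (39.3%) met at least 1 of these. Untreated tumor 1 held 109 of the 158 and Minnelide tumor 2 held 22. Of 60121 filtered nuclei, 6864 endothelial, 1185 fibroblast, 777 macrophage and 8305 myonucleus nuclei lay outside the mural class and met only that 1 of these rules. Scrublet placed 7 of the 402 VSMC nuclei among the likely doublets, against 3960 of the 60121 filtered nuclei. The tumor rule was met by 291 of the 402 nuclei but also by 92.9% of all filtered nuclei, and so does not separate classes here. The summed CIC::DUX4 target genes were at 2875, 8147, 4406 and 4482 CPM in VSMC nuclei of untreated tumors 1 to 4 and at 9801, 5715 and 8326 CPM in Minnelide tumors 1 to 3. The 8 myonucleus genes ranged from 223 CPM in Minnelide tumor 3 to 18521 CPM in Minnelide tumor 2, and in the nuclei outside the mural class they were also lowest and highest in these tumors, at 802 and 22453 CPM. How far free RNA or nuclei captured together add to these values was not tested.

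The genes of the contractile apparatus were the clearest shared feature outside the rule. Together the 21 contractile genes that the rule did not use made up 13727, 11303, 15287 and 13254 CPM in untreated tumors 1 to 4 and 10015, 11515 and 10743 CPM in Minnelide tumors 1 to 3. The sum was 4188 to 6716 CPM in pericyte-leaning nuclei and 1792 to 2494 CPM in macrophage nuclei. Its within-tumor ratio of VSMC to pericyte-leaning nuclei had a median of 2.39 and ranged from 2.04 to 3.37 over the 7 tumors. Of the 17 genes at 100 CPM or more in either class, 15 were higher in VSMC nuclei in all 7 tumors, where 8.58% of 2751 genes of that level were higher and 8.98% were lower in all 7. Without the mural nuclei that met a rule of the 4 non-tumor classes, a setting chosen after seeing the data, the ratio was 2.38. There 15 of 18 genes were higher in every tumor, and nuclei that met the tumor rule stayed in. With the tumor rule also applied, only 2 tumors, both untreated, kept enough nuclei, with 60 VSMC nuclei between them. The rule itself contrasts these classes, so the counts are a description and no test was run.

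Within the group, the actin and myosin regulators stood at different ratios. Tagln, transgelin, which cross-links actin, was at 661, 347, 391 and 193 CPM in untreated tumors 1 to 4 and at 277, 163 and 377 CPM in Minnelide tumors 1 to 3, with 30.4 ± 26.3 CPM in pericyte-leaning nuclei. Lmod1, leiomodin, which nucleates actin filaments, was at 248 ± 110 against 24.1 ± 19.2 CPM. Mylk, the myosin light chain kinase, was at 670 ± 83.5 against 196 ± 46.6 CPM. Among these Mylk varied least between tumors, from 576 to 790 CPM. Synpo2, an actin-bundling protein, was at 526 ± 327 against 61.0 ± 39.2 CPM and spread widely, from 147 CPM in Minnelide tumor 1 to 1128 CPM in untreated tumor 3. Cald1, caldesmon, was abundant in both mural classes, at 2493 ± 400 against 1292 ± 244 CPM. Tpm1 was at 1689 ± 425 against 548 ± 403 CPM, and Vcl, vinculin, which links actin to adhesion sites, at 959 ± 200 against 354 ± 56.6 CPM. Actg2, the gamma smooth muscle actin typical of visceral muscle, was at 240, 123, 696 and 403 CPM in untreated tumors and at 243, 7.78 and 263 CPM in Minnelide tumors 1 to 3. The value of 7.78 CPM is that of 1 UMI. Reads of Acta2 and Actg2, which encode nearly identical proteins, may be split between them. Itga8, an integrin subunit, and Tln1, talin, were the 2 contractile-list genes at 100 CPM or more whose direction differed between tumors. They were higher in VSMC nuclei in 4 and 6 of 7 tumors.

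The promoters of 2 of the contractile genes are shown because they carry the CArG box, the element that SRF binds, near the start site. The search took the strict form of the box, which is 2 C, then 6 bases that are A or T, then 2 G and reads alike on both strands, in the 250 bases before the Ensembl canonical start of each protein-coding gene (GRCm39, GENCODE M39). It was present in 304 of 21770 promoters (1.4%) and in 2 of 24 contractile genes (8.33%), at base -64 of Tagln and base -227 of Vcl. The capitals mark the box.
Tagln, chr9:45847405-45847654, minus strand: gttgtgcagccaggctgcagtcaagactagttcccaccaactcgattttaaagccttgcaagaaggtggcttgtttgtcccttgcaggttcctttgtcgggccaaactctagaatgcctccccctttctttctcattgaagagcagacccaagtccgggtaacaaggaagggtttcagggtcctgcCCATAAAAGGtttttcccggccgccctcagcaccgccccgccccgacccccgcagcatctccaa
Vcl, chr14:20979216-20979465, plus strand: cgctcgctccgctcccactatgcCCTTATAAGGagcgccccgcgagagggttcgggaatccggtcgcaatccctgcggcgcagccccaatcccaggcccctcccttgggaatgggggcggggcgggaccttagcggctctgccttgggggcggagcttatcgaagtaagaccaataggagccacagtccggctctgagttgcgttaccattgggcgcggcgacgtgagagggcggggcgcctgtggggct
For Acta2, Myh11 and the other contractile genes these letters are not in this window. Other start sites, first introns and relaxed forms of the box were not searched, and a match describes the sequence only.

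Regulators of the contractile program were higher in VSMC nuclei for a few members of the list. Myocd, the SRF coactivator, was at 183, 145, 395 and 385 CPM in untreated tumors 1 to 4 and at 113, 194 and 251 CPM in Minnelide tumors 1 to 3. Pericyte-leaning nuclei had 13.6 ± 11.5 CPM and macrophage nuclei 2.47 CPM, and the within-tumor log2 ratio to pericyte-leaning nuclei was at least 3.35 in every tumor. A Myocd UMI was present in 14.4% of VSMC, 1.04% of pericyte-leaning and 0.257% of macrophage nuclei at 1000 UMIs. Prdm16, a transcription factor of arterial vessels, was at 200 ± 135 against 12.1 ± 9.98 CPM. Fhl2, a LIM domain cofactor, was at 203, 101, 162 and 193 CPM in untreated tumors and 249, 46.7 and 291 CPM in Minnelide tumors 1 to 3. Srf itself was near the detection floor, with a UMI in 2.74% of nuclei at 1000 UMIs. Ebf1, a transcription factor shared by mural cells, was at 4061 ± 772 against 3784 ± 1027 CPM and was higher in VSMC nuclei in 5 of 7 tumors. In all, 4 of the 12 regulators of 100 CPM or more were higher in VSMC nuclei in every tumor and 0 were lower. Over all 2751 genes of that level the shares were 8.58% and 8.98%. The median log2 ratio was 0.34, against -0.03 over all 2751 genes.

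In the Notch pathway the ligand Jag1, which mural cells display to their neighbors, was at 309, 235, 425 and 315 CPM in untreated tumors 1 to 4 and at 316, 163 and 423 CPM in Minnelide tumors 1 to 3. It was 1.98 times the pericyte-leaning level at the median and higher in 7 of 7 tumors. The target genes Heyl (84.0 ± 31.3 against 58.9 ± 19.5 CPM) and Hey2 (54.1 ± 32.1 against 17.1 ± 12.8 CPM) were higher in 5 and 6 of 7 tumors, and both were at or under 0.84 CPM in macrophage nuclei. Notch1, Notch2 and Rbpj, the DNA-binding partner of all Notch receptors, were higher in VSMC nuclei in 0, 6 and 3 of 7 tumors. Only Jag1 of the 6 Notch genes outside the rule at 100 CPM or more was higher in all 7 tumors. Of all 2751 genes of that level 8.58% were.

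Several genes of calcium handling were higher in VSMC than in pericyte-leaning nuclei. Cacna1c, the pore-forming subunit of the L-type channel, was at 1319, 1175, 2530 and 2906 CPM in untreated tumors 1 to 4 and at 1830, 2745 and 1457 CPM in Minnelide tumors 1 to 3, against 941 ± 294 CPM in pericyte-leaning and 188 CPM in macrophage nuclei. The channel's beta subunit Cacnb2 was at 751 ± 411 against 150 ± 93.3 CPM. Ryr2, a calcium release channel of internal stores, was nearly absent from pericyte-leaning nuclei (3.29 ± 3.56 CPM). It was at 139, 89.5, 196 and 175 CPM in untreated tumors and at 22.6, 389 and 34.3 CPM in Minnelide tumors. The high value belongs to the tumor with the most myonuclear RNA in its VSMC nuclei. All other filtered nuclei, myonuclei included, had 1.67 ± 0.53 CPM of Ryr2 (SD, n = 7). The source of the high value was not tested. Itpr1, Atp2a2, Atp2b4 and Slc8a1, which release calcium, pump it or exchange it for sodium, were also higher than in pericyte-leaning nuclei in 7 of 7 tumors. Of the 15 channel and calcium genes outside the rule at 100 CPM or more, 7 were higher and 1 was lower in every tumor. The shares over all 2751 genes of that level were 8.58% and 8.98%.

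The cyclic nucleotide pathway, through which nitric oxide relaxes the vessel, had a mixed pattern. Prkg1, the cyclic GMP-dependent protein kinase, was at 5204, 4051, 5831 and 5900 CPM in untreated tumors 1 to 4 and at 5553, 5707 and 5377 CPM in Minnelide tumors 1 to 3, and was higher than in pericyte-leaning nuclei (3341 ± 799 CPM) in 7 of 7 tumors. The guanylate cyclase subunits Gucy1a1, Gucy1a2 and Gucy1b1, which sense nitric oxide, had means of 4.73, 5.70 and 2.62 CPM in macrophage nuclei. In VSMC nuclei Gucy1a2 was at 583 ± 120 CPM, against 306 ± 70.8 CPM in pericyte-leaning nuclei, and was higher in 7 of 7 tumors. Gucy1a1 was at 203 ± 90.4 against 124 ± 34.1 CPM and Gucy1b1 at 97.0 ± 30.5 against 110 ± 46.5 CPM. Each of these 2 was higher in VSMC nuclei in 5 of 7 tumors. Pde1a, Pde5a and the adenylyl cyclase Adcy5 were higher than in pericyte-leaning nuclei in every tumor, and Pde4b, Pde4d and Pde10a were lower in every tumor. Pde10a was at 415 CPM in untreated tumor 1 and between 3019 and 4783 CPM in the other 6, and was higher still in the nuclei outside the mural class (9579 CPM). Over the list, 6 of 16 genes were higher and 3 lower in every tumor, against 8.58% and 8.98% of all 2751 genes.

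Vasoactive receptors were sparse at this depth. Of 23 measured genes of that list only 8 outside the rule reached 100 CPM in either mural class. Of these 1, the protein kinase Rock2, which favors contraction, was higher in VSMC nuclei in all 7 tumors. Of all 2751 genes of that level 8.58% were. Ednra, the endothelin receptor of mural cells, was at 456, 593, 493 and 525 CPM in untreated tumors 1 to 4 and at 463, 389 and 571 CPM in Minnelide tumors 1 to 3. Pericyte-leaning nuclei had 534 CPM, inside that range. The alpha-1A adrenergic receptor Adra1a was detected in 2.99% of VSMC and 0.257% of macrophage nuclei at 1000 UMIs. Its levels of 25.4, 22.4, 18.8 and 52.5 CPM in untreated and 0.00, 148 and 45.7 CPM in Minnelide tumors rest on few UMIs.

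Matrix and signaling genes differed less between the mural classes. Elastin (Eln), the main elastic component of artery walls, was the exception in its list. It was at 365, 134, 387 and 158 CPM in untreated tumors 1 to 4 and at 249, 303 and 80.0 CPM in Minnelide tumors 1 to 3, against 27.5 ± 22.6 CPM in pericyte-leaning nuclei, and was the only 1 of 20 basement membrane and matrix genes higher in every tumor. Col4a1 and Col4a2, the basement membrane collagens of both mural classes, did not keep a direction. Of the synthetic-state genes only Col8a1, a short-chain collagen, was higher in all 7 tumors (1942 ± 1367 against 722 ± 363 CPM), and Vcan was lower in all 7. The median log2 ratio of that list, 0.03, was near the -0.03 of all genes. Among secreted vessel signals, Slit3 was at 3372, 2037, 3666 and 3362 CPM in untreated and 3067, 1617 and 3703 CPM in Minnelide tumors 1 to 3, against 1001 ± 287 CPM. The laminin-related Ntn4 was at 531, 224, 899 and 525 CPM and at 62.1, 288 and 160 CPM, against 41.7 ± 37.5 CPM. The TGF-beta and BMP list had 1 gene, Ltbp1, higher and 2 lower in every tumor of 19. Over all 2751 genes of 100 CPM or more, 8.58% were higher and 8.98% lower in every tumor. The counts of the matrix, synthetic-state and TGF-beta lists were near these shares. The summed pericyte genes outside the rule were at 478 ± 155 CPM in VSMC against 681 ± 202 CPM in pericyte-leaning nuclei, with a median ratio of 0.692. Within that list Slc38a11 was higher in VSMC nuclei in every tumor.

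**Figure D3:**
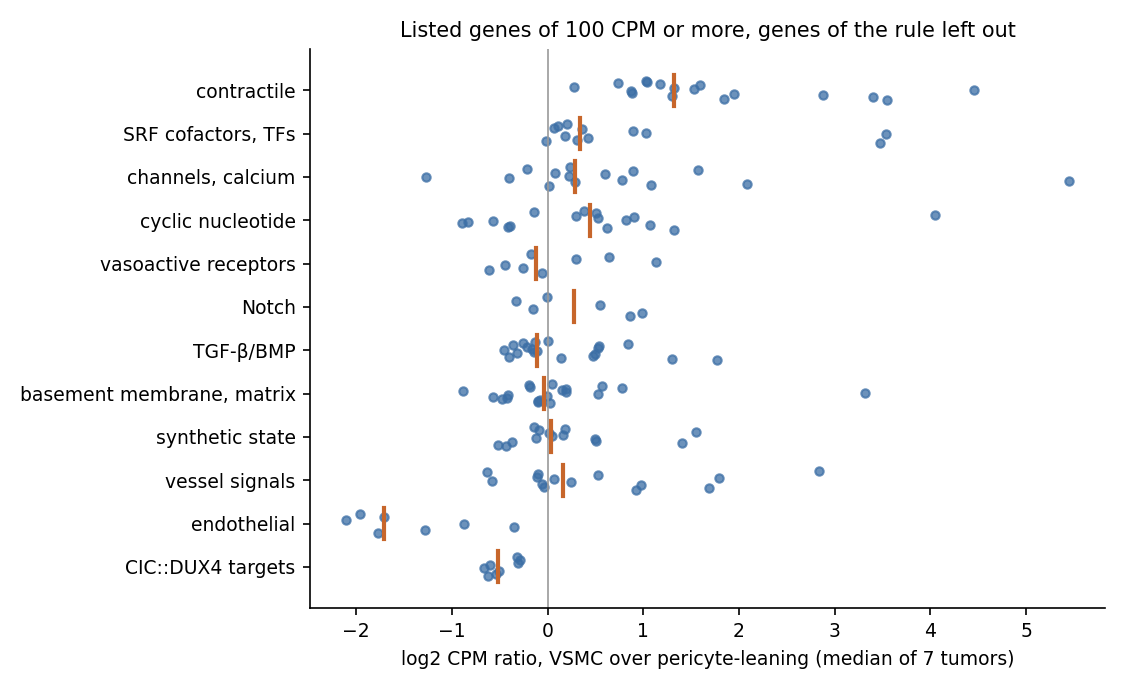
Median within-tumor log2 ratio of CPM in VSMC over pericyte-leaning nuclei, 1 point per gene of 100 CPM or more outside the rule, grouped by list. Orange bars are list medians, which run from 1.32 for contractile genes to -1.70 for endothelial genes, and the line at 0 marks equal levels.

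The genes outside the rule with the largest median ratios over pericyte-leaning nuclei were, in order, Olfr78, Ryr2, Dgkg, Ntrk3, Tmem132d, Slc38a11, Actg2, Adcy5, Pi15, Ctnna3, Tagln, Prdm16, Myocd, Dgkb and Lmod1, with median log2 ratios from 6.033 to 3.397. Olfr78, a member of the olfactory receptor family, was at 186, 67.1, 259 and 123 CPM in untreated tumors 1 to 4 and at 136, 101 and 143 CPM in Minnelide tumors 1 to 3, with 2.05 ± 2.16 CPM in pericyte-leaning nuclei. Ctnna3, an alpha-catenin of cell junctions, was at 928, 1645, 2722 and 2031 CPM and at 441, 2403 and 789 CPM, against 117 ± 80.5 CPM. Ntrk3, the neurotrophin-3 receptor, was at 311 ± 148 against 12.8 ± 13.3 CPM, and Dgkb, a diacylglycerol kinase, at 792 ± 292 against 66.4 ± 36.4 CPM. Counts of Olfr78 may be shared with other olfactory receptor genes.

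The 10 genes with the smallest ratios were Pcdh17, Rapgef5, Emcn, Adgrl4, Rasgrp3, Egfl7, Ccser1, Pecam1, Ptprb and Cyyr1, with median log2 ratios from -2.77 to -1.61. Emcn, Egfl7, Pecam1 and Ptprb are endothelial markers, and the summed endothelial list was at 1614, 414, 857 and 613 CPM in VSMC nuclei of untreated tumors 1 to 4 and 1011, 848 and 783 CPM in Minnelide tumors 1 to 3, against 1461 to 2626 CPM in pericyte-leaning nuclei. Without mural nuclei that met a rule of the 4 non-tumor classes, 2 of these 10 genes remained lower in every tumor. That choice itself removes nuclei by endothelial markers, and it keeps nuclei that met the tumor rule. Of the 15 genes of the higher set 14 remained higher.

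Against all other filtered nuclei, 411 of 2776 genes (14.8%) were higher in every tumor and 411 (14.8%) lower. Among the largest ratios outside the rule were those of Slc38a11, Olfr78, Myocd, Ryr2, Fhl5, Actg2, Pi15, Dgkb, Lmod1, Gucy1a2, Ntrk3, Tagln, Mrvi1 and Parm1. Fhl5, a LIM domain protein, was at 217 ± 166 CPM in VSMC nuclei, 47.9 ± 24.7 CPM in pericyte-leaning nuclei and 2.83 ± 1.66 CPM in all other nuclei. Mrvi1, a substrate of the cyclic GMP kinase in calcium release, was at 291 ± 97.4 against 10.2 ± 2.50 CPM. Parm1, a membrane glycoprotein, was at 180.3 ± 46.1 against 23.1 ± 34.98 CPM.

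The first question on treatment was whether the share of VSMC nuclei differed. They made up 1.91% (exact 95% interval 1.65% to 2.21%), 0.417% (0.262% to 0.631%), 0.827% (0.622% to 1.08%) and 0.328% (0.191% to 0.524%) of filtered nuclei in untreated tumors 1 to 4. In Minnelide tumors 1 to 4 the shares were 0.376% (0.272% to 0.506%), 0.583% (0.424% to 0.782%), 0.336% (0.231% to 0.471%) and 0.165% (0.0713% to 0.325%). The intervals are Clopper-Pearson and cover counting error only. Untreated tumor 1 lay highest and Minnelide tumor 4 lowest, and the groups overlapped. The means were 0.871% ± 0.727 and 0.365% ± 0.172 (SD, n = 4 each), and the difference did not pass an exact two-sided permutation test (p = 0.229, adjusted p = 0.393 over 5 comparisons, smallest possible p 0.0286). Without untreated tumor 1 the difference of -0.506 percentage points became -0.159.

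Among mural nuclei the VSMC share was 42.6%, 14.97%, 24.5% and 13.8% in untreated tumors 1 to 4 and 10.5%, 24.9%, 15.3% and 7.62% in Minnelide tumors 1 to 4. The groups overlapped here too, with means of 24.0% ± 13.3 and 14.6% ± 7.56 (SD, n = 4 each; exact permutation p = 0.314, adjusted p = 0.393). Without untreated tumor 1 the difference of -9.43 percentage points became -3.22. Mural nuclei as a whole made up 3.25% ± 0.920 and 2.58% ± 0.681 of filtered nuclei (SD, n = 4 each; exact permutation p = 0.286). The median VSMC nucleus held 3631 ± 647 UMIs in untreated tumors (SD, n = 4) against 3829 ± 1040 in Minnelide tumors (SD, n = 3; exact permutation p = 0.8). At 1000 UMIs it held 783 ± 6.62 detected genes in untreated tumors (SD, n = 4) against 770.2 ± 17.8 in Minnelide tumors (SD, n = 3; exact permutation p = 0.286). With 4 against 3 tumors the smallest possible p is 0.0571.

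**Figure D4:**
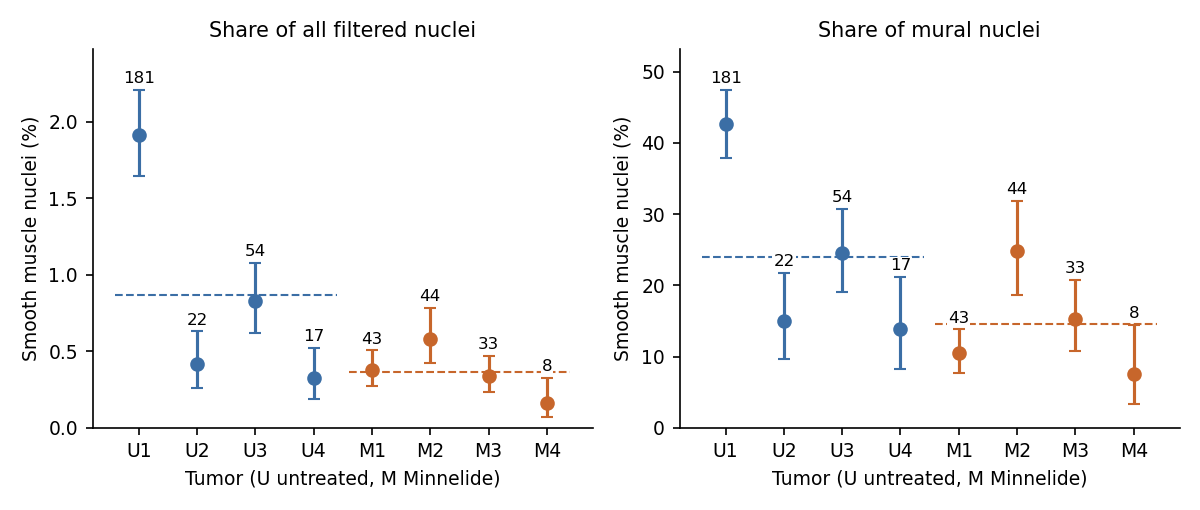
VSMC nuclei in percent of all filtered nuclei (left) and of mural nuclei (right), 1 point per tumor with its exact 95% interval and the number of VSMC nuclei above it. Dashed lines are group means, and untreated tumor 1 (1.91% and 42.6%) stands above the other tumors in both panels.

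No gene passed the test for an effect of Minnelide within VSMC nuclei. edgeR called 0 of 4115 genes (0.0% in either direction) at an adjusted p under 0.05 with 4 untreated and 3 Minnelide tumors, and 188 had an unadjusted p under 0.05, 91 (2.21%) with higher and 97 (2.36%) with lower values in Minnelide tumors. DESeq2 called 2, Cytl1 and Brinp3. Groups without overlap in CPM were found for 107 genes (2.6%) with higher and 114 (2.77%) with lower values in Minnelide tumors. The median log2 fold change over all genes was 0.000249.

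Contractile genes leaned lower without passing the test. Of 20 contractile genes outside the rule that were tested, 19 had a negative log2 fold change, 0 were called and 1 had groups without overlap, and their median was -0.32. Minnelide tumor 4, outside the fit, went against this lean, with a summed contractile level of 13077 CPM inside the untreated range. Acta2 was at 1714 ± 170 CPM in untreated (SD, n = 4) and 946 ± 277 CPM in Minnelide tumors (SD, n = 3). Minnelide tumor 4 had 985 CPM. Acta2 UMIs decide in part which nuclei are members, so these values are a description with no test. Myl9, a regulatory myosin light chain, was at 127, 89.5, 82.7 and 70.0 CPM in untreated and 45.2, 54.4 and 22.9 CPM in Minnelide tumors 1 to 3, a log2 fold change of -1.26 ± 0.41 (SE). Minnelide tumor 4 had 61.5 CPM. Tagln and Cald1 overlapped between the groups. The summed CIC::DUX4 target genes had the opposite lean, with 8 of 8 log2 fold changes positive and 0 called. They were at 4978 ± 2239 CPM in untreated (SD, n = 4) and 7947 ± 2069 CPM in Minnelide tumors (SD, n = 3). In pericyte-leaning nuclei the sum was 3975, 8917, 8303 and 7217 CPM in untreated tumors and 14199, 7983 and 12279 CPM in Minnelide tumors 1 to 3. In the nuclei outside the mural class it was 9977, 13429, 10798 and 12107 CPM and 18725, 8789 and 17776 CPM. The part of such RNA in the lower contractile values was not tested.

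**Figure D5:**
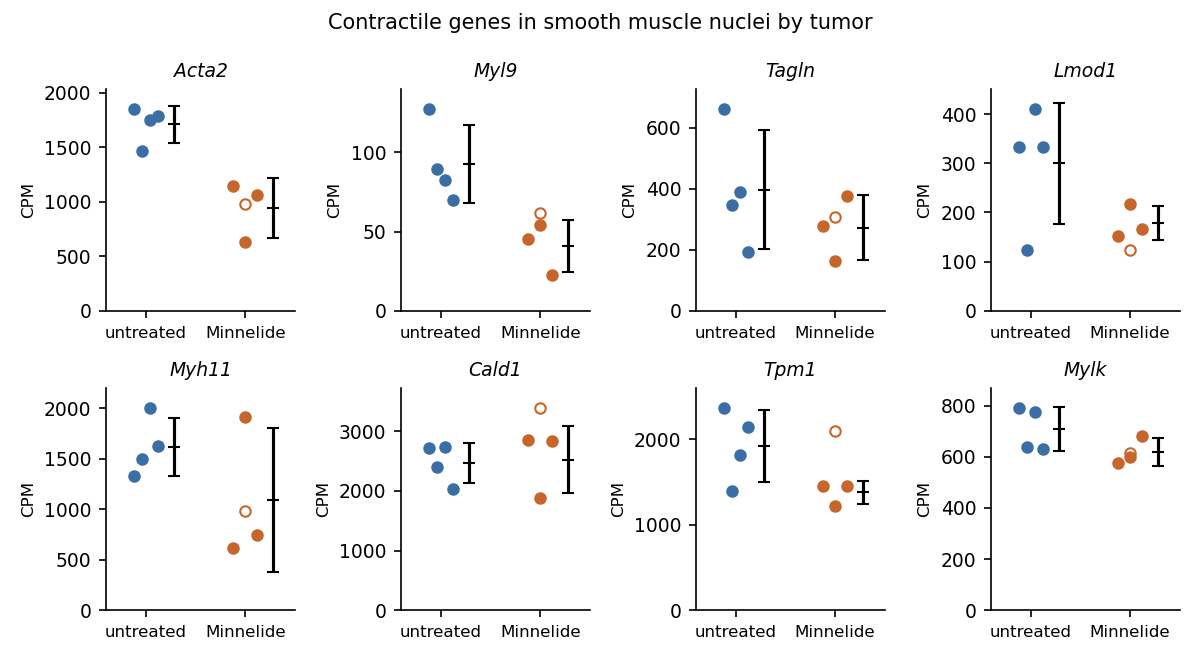
CPM of 8 contractile genes in VSMC nuclei, with 1 point per tumor by group, bars for mean and SD, and an open circle for Minnelide tumor 4, which is outside the mean. Acta2 and Myh11 belong to the rule. Acta2 and Myl9 do not overlap between the groups of the fit, whereas Tagln, Lmod1, Myh11, Cald1, Tpm1 and Mylk do.

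The genes with the smallest p among those higher in Minnelide tumors were Cytl1, Tspan7, Dlk1, Cecr2 and Ddah1. Cytl1, a secreted cytokine-like protein, was at 52.2, 112, 105 and 52.5 CPM in untreated tumors 1 to 4 and at 819, 210 and 1080 CPM in Minnelide tumors 1 to 3 (log2 fold change 3.15 ± 0.52 SE, edgeR adjusted p = 0.516). Dlk1, a Notch-related surface protein of immature tissues, was at 28.1, 112, 45.1 and 158 CPM and at 819, 187 and 394 CPM (2.83 ± 0.63, adjusted p = 0.765). Neither was particular to VSMC nuclei. In the nuclei outside the mural class Cytl1 was at 55.4, 236, 181 and 129 CPM in untreated tumors and 730, 195 and 1359 CPM in Minnelide tumors 1 to 3, and Dlk1 at 30.5, 210, 154 and 426 CPM and 1278, 192 and 707 CPM. For Ddah1, which breaks down an inhibitor of nitric oxide synthesis, the VSMC values were 28.1, 44.8, 82.7 and 35.02 CPM and 203, 124 and 114 CPM (1.62 ± 0.43, adjusted p = 1.00).

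Among genes lower in Minnelide tumors the smallest p belonged to Brinp3, Cav1, Bcar3, Ndrg1 and Aoc3. Brinp3 was at 213, 548, 887 and 350 CPM in untreated tumors 1 to 4 and at 96.0, 62.2 and 34.3 CPM in Minnelide tumors 1 to 3 (-2.93 ± 0.56 SE, edgeR adjusted p = 0.765), and in the nuclei outside the mural class at 156, 1074, 986 and 595 CPM and 158, 330 and 188 CPM. Cav1, the coat protein of caveolae, was at 280, 201, 335 and 210 CPM and at 113, 101 and 80.0 CPM (-1.40 ± 0.30, adjusted p = 0.765). Aoc3, an amine oxidase on the surface of smooth muscle, was at 131, 89.5, 71.4 and 140 CPM and at 11.3, 15.6 and 45.7 CPM (-2.07 ± 0.51, adjusted p = 1.00), and in the nuclei outside the mural class it lay at 1.87 to 12.97 CPM in the same 7 tumors. All 10 genes had groups without overlap, and none passed the correction. Over all 4115 genes, 2.6% had such groups with higher and 2.77% with lower values in Minnelide tumors. The 10 were chosen by their small p, so their lack of overlap describes that choice.

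In the other lists the counts of genes tested outside the rule, with higher and lower values in Minnelide tumors, were 7 and 7 for contractile regulators, 7 and 8 for channels and calcium, 9 and 8 for cyclic nucleotides, 4 and 5 for vasoactive receptors and 5 and 4 for Notch. They were 5 and 15 for TGF-beta and BMP, 13 and 11 for matrix, 7 and 7 for the synthetic state and 7 and 9 for vessel signals, with 0 called in each. Of the immediate early genes 10 of 10 had a lower value, with a median of -0.91 and 0 called. Their summed level was 3851, 2171, 2654 and 1366 CPM in untreated tumors and 1712, 699.8 and 2029 CPM in Minnelide tumors 1 to 3. Minnelide tumor 4, outside the fit, had 3569 CPM, above 3 of the 4 untreated tumors. In the nuclei outside the mural class the sum was 2182.5, 828, 727 and 759 CPM in untreated tumors. There Minnelide tumors 1 to 4 had 568, 585, 639 and 787 CPM. Jun, an AP-1 transcription factor, was at 139, 112, 135 and 17.5 CPM in untreated tumors 1 to 4 and at 28.2, 46.7 and 22.9 CPM in Minnelide tumors 1 to 3, so the groups overlapped through untreated tumor 4, where 1 UMI stands for 17.5 CPM. Ntn4 had the smallest p of the vessel signals (-1.69 ± 0.56 SE, edgeR adjusted p = 1.00).

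Whether the Minnelide effect differed between VSMC and pericyte-leaning nuclei was tested as an interaction with tumor as a block. None of 7142 genes passed (edgeR, 0.0%). An unadjusted p under 0.05 was reached by 266, with a more positive effect in VSMC nuclei for 149 (2.09%) and a more negative one for 117 (1.64%). DESeq2 also called 0. The smallest p values belonged to Csmd1, Eya2 and Ldb2 on the higher side and Dlg2, Zdhhc14 and Ntrk3 on the lower side. Csmd1, a large membrane protein, was at 1025, 112, 290 and 1698 CPM in VSMC nuclei of untreated tumors 1 to 4 and 548, 832 and 617 CPM in Minnelide tumors 1 to 3, whereas pericyte-leaning nuclei had 1811, 531, 499 and 464 CPM and 74.1, 225 and 47.6 CPM (interaction 3.17 ± 0.60 SE, edgeR adjusted p = 0.343).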

How the data were processed

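Nuclei of 8 tumors were profiled by 3′ single-nucleus RNA-seq with on-chip multiplexing. The authors deposited filtered gene-by-nucleus matrices of raw UMI counts with 19059 features. The submitters' processing notes name bcl2fastq 2.20, Cell Ranger 7.0.1 and the mm39 genome, whereas the matrix headers name Cell Ranger 9.0.1. Intronic reads were counted, so levels in nuclei include unspliced RNA.

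From the counts, nuclei were filtered and classed as the report states, and UMIs were summed per tumor and class. Sums of fewer than 10 nuclei were left out. Log2 ratios between classes carry 0.5 UMI added to each sum, which distorts low genes and weighs more in the smaller VSMC sums. Dusp4 had a log2 ratio to pericyte-leaning nuclei of up to 0.036, though its CPM was lower in 7 of 7 tumors. The direction in each tumor was read from CPM without the added 0.5 UMI. Sums were tested with edgeR 4.0.16 (quasi-likelihood, TMM, filterByExpr, Benjamini-Hochberg adjustment) in R 4.3.3, with DESeq2 1.42.0 as an alternative, and shares and medians by exact two-sided permutation over tumors (SciPy 1.17.1). The edgeR step was tested on simulated data. Other classes were assigned by 8 markers each without the tumor rule. Doublets were scored with Scrublet (scanpy 1.11.5) and kept.

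Named genes were the markers, the rule genes, members of the lists, the 5 smallest p in each direction for Minnelide, the 3 smallest in each direction for the interaction, the 15 largest and 10 smallest ratios to pericyte-leaning nuclei, the 15 largest ratios to all other nuclei, and up to 3 genes per list by p. The members and lists were chosen with earlier results of these data known. Nothing in the labels says more of how tumors were sampled, so p-values measure the spread between these tumors. Some items that these rules select are not reported here.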

Additional observations from a re-analysis of the deposited data

Results flagged for a closer look

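Among 25 sets of 4 tumors, 2 had a single tumor standing far apart, and chance alone gives about 1 in 20. The mural share of filtered nuclei in Minnelide tumor 1 was 3.59%, against 2.35% in the nearest Minnelide tumor. The summed myonucleus genes in VSMC nuclei of untreated tumor 1 reached 10614 CPM, against 2574 CPM in the nearest untreated tumor.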

How the results depend on the processing

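The VSMC share of filtered nuclei was lower in Minnelide tumors under all 16 alternatives, and leaving out 1 tumor moved the difference between -0.687 and -0.159 percentage points (VSMC share of mural nuclei -12.9 to -3.22). Leaving out every nucleus that met another class rule, the tumor rule included, left 0 VSMC nuclei in Minnelide tumors and a difference of -0.199 percentage points of filtered nuclei. That filter removes nearly every Minnelide nucleus by itself, so its passing the test says nothing about the shares. No share of mural nuclei, medians or fit could be had there. The difference in median UMIs, 197 in the report, reversed at 2000 UMIs (-323), under 2% mitochondrial UMIs (-56.7), at 30 mural UMIs per 10000 (-154), with 4 mural genes (-113), with an excess of at least 2 UMIs (-78.8), without nuclei of the 4 non-tumor classes (-101) and with Minnelide tumor 4 included (-12.9), the last 2 chosen after seeing the data. Leaving out 1 tumor gave -280.5 to 751. The cause was not tested.

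For Minnelide in VSMC nuclei, where edgeR called 0 genes, DESeq2 called 2 (Cytl1 and Brinp3), no filter on low counts called 3 (also Dlk1), and leaving out 1 tumor called 0 to 1, which was Cytl1 without Minnelide tumor 2. For the interaction, no filter called 10 genes, at least 20 nuclei per tumor called 1 (Csmd1, the same tumors as without untreated tumor 4), and leaving out 1 tumor called 0 to 2, which were Myl1 and Xirp2 without Minnelide tumor 1. No paired analysis was made, because nothing in the labels pairs an untreated with a Minnelide tumor. With 8 to 181 nuclei per tumor, genes at a few UMIs cannot be compared at this depth.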
